A study of Arabidopsis thaliana with 8 samples.

Results

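The 41 genes described here are the tau and phi glutathione transferases of Arabidopsis thaliana, GSTU1 to GSTU28 of the tau class (28 genes) and GSTF2 to GSTF14 of the phi class (13 genes). They were taken by locus from the 25665 loci that the array names, and each had 1 probe. Transcript levels came from whole seedlings 2 weeks old (ecotype Columbia-0) with 35S:WIN1:NOS, set against seedlings called vector control in the titles and wild type in the genotype field. WIN1 encodes a transcription factor of the AP2/ERF type that acts on genes of cutin and wax, and the 35S promoter of a plant virus drives it in nearly all tissues. The plants of both groups were kept at 23 degrees Celsius under a day of 16 h and a night of 8 h on MS agar that held 1% sucrose. There were 4 samples of either genotype, hybridised singly to 1-colour arrays. The labels do not say how many transgenic lines were used, and several seedlings made up a sample without any word on separate plates, so the spread behind the p-values is that among these samples and may be technical only.

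Glutathione transferases join the tripeptide glutathione to reactive or foreign molecules, which marks these for transport into the vacuole. The tau and phi classes are the large plant classes, and many of their genes are induced by herbicides and safeners, oxidized lipids, salicylate, jasmonate or pathogens. Some members act in defined pathways, as GSTF6 does in camalexin synthesis, GSTF11 and GSTU20 in aliphatic glucosinolate synthesis and GSTF12 in the transport of anthocyanins.

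A level in this text is the log2 signal of a gene's probe minus the log2 of the array's 75th percentile, and a difference is the mean level in 35S:WIN1 minus that in vector control. Levels of different genes come from different probes and are not compared. The 75th percentile was 996.7 to 2490 in 35S:WIN1 and 1790 to 2354 in vector control, and no spot of a member was saturated. Each genotype had a slide of its own, whose effect and that of the genotype cannot be told apart. WIN1 itself had levels of 5.62, 5.44, 4.50 and 3.85 in 35S:WIN1, against -9.10, -6.07, -9.32 and -8.34 in vector control, where 1 of 4 arrays was well above background. Markers of shoot and root were both present and moved with genotype. Of 6 shoot markers 4 were lower in 35S:WIN1, beside 20.2% of all genes tested. The others, RBCS1A and LHCB1.3, had differences of 0.22 and 0.15 that did not pass. The summed linear signal of the 6 relative to the 75th percentile was 236 to 299 in 35S:WIN1, against 309 to 374 in vector control. Of 7 root markers 3 were higher, beside 15.1% of all genes tested, with sums of 55.1 to 92.6 in 35S:WIN1, against 30.8 to 44.7 in vector control. Most of that sum came from PYK10 and BGLU22, while COBL9 and SKOR had differences of 0.07 and -0.53 that did not pass. The part of these markers in the results below was not tested, and in whole seedlings fewer cells of a type and less RNA per cell cannot be told apart. Seed storage genes, which seedlings of this age should lack, were well above background on no array for 4 of 5. The other, AT2S2, was so on 2 of 4 arrays in 35S:WIN1 and 0 of 4 in vector control. Of the flower genes, also taken as markers of absent tissue, PI was well above background on all arrays of both groups. Its difference of -0.21 did not pass. AP3 was so on 1 of 4 arrays in either group. The source of these signals was not tested.

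Members moved both ways, and more of them rose than fell. GSTU3 and GSTU4 of the tau class and GSTF6 and GSTF7 of the phi class had the largest rises of their classes, and GSTF14 of the phi class had by far the largest fall. Of the 41 members 39 were tested, since GSTU15 and GSTF5 were well above background on no array. Under limma with Benjamini-Hochberg adjustment over all 20443 genes tested and a threshold of 0.05, 10 of 27 tau members were higher and 3 lower, and 5 of 12 phi members were higher and 1 lower. Over all genes tested 35.3% were called, 15.1% higher and 20.2% lower. Of the members called, 8 tau members were at least 2-fold higher and 1 lower, and 4 phi members at least 2-fold higher and 1 lower, where 7.73% of all genes tested were higher and 7.47% lower by this measure. The median difference was 0.31 over the tau members tested and 0.09 over the phi members tested, against -0.04 over all genes tested. The phi median turned to -0.093 with no filter on dim probes and was 0.28 with probes well above background on all arrays. In the deposited table the medians were -0.089 (tau) and -0.34 (phi), against -0.45 over all genes tested. With spike-in scaling they were -1.32 and -1.45, against -1.68, and more members were called lower than higher. The groups of 4 arrays did not overlap for 15 members higher in 35S:WIN1 and for 6 lower. Over all genes tested they did not overlap in 35.7%, with 15.4% on the higher side and 20.3% on the lower side. Among the lower members GSTF8 had only 3 values in 35S:WIN1, and neither GSTF8 nor GSTF13 passed. Of the members tested 48.1% were called in the tau class and 50% in the phi class, and no test was made of the difference between the classes.

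**Figure D1:**
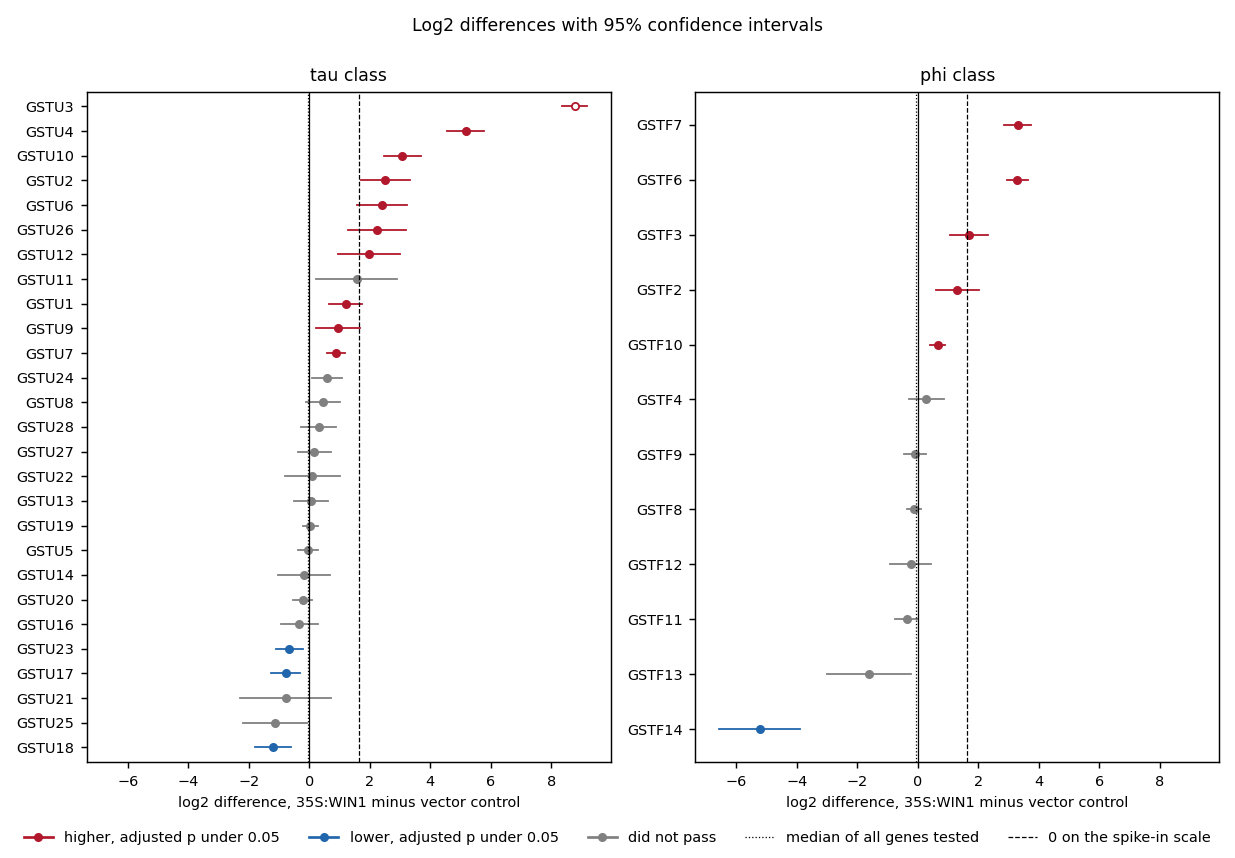
Log2 difference (35S:WIN1 minus vector control, horizontal axis) of each tau (left) and phi (right) member tested, sorted by size, with its 95% confidence interval from limma. Red marks are higher and blue marks lower at an adjusted p of 0.05, grey marks did not pass, the open mark (GSTU3) rests on control signal below background, the dotted line is the median of all genes tested and the dashed line shows where 0 would lie with spike-in scaling, at 1.63.

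GSTU1 to GSTU7 form a run of 7 members on chromosome 2, with at most 1 other protein-coding gene between neighbours, and 6 of the 7 rose. GSTU3 and GSTU4, in the middle of the run, rose most, and GSTU5 beside GSTU4 did not pass. GSTU3 (AT2G29470) had levels of -0.47, -1.03, -0.47 and -1.11 in 35S:WIN1, against -9.35, -9.57, -9.68 and -9.57 in vector control, where 0 of 4 arrays showed it well above background. Its control level is therefore only a bound. With each control array raised to the lowest signal of any probe well above background there, GSTU3 was at least 97.0-fold higher by that floor. The floor is not a detection limit of this probe. With normexp background correction, at an offset of 50, the log2 difference was 3.92. The adjusted p of the limma fit, 3.81e-07, rests on control values below background, and GSTU3 passed the filter on dim probes through the 35S:WIN1 arrays alone. The transcript was thus measured on every 35S:WIN1 array and on no control array.

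GSTU4 (AT2G29460) had levels of 1.62, 1.55, 1.20 and 0.45 in 35S:WIN1, against -3.98, -3.61, -4.26 and -4.00 in vector control. It was thus 35.8-fold higher, a log2 difference of 5.16 (SE 0.27, limma adjusted p = 2.29e-05), and it was above background on all arrays. GSTU4 thus had the largest rise among tau members measured in both groups, and its lowest 35S:WIN1 array, replicate 4, still lay far above every control array.

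GSTU2 (AT2G29480) stood at -0.10, -0.18, -0.21 and -1.13 in 35S:WIN1, against -3.55, -2.57, -3.37 and -2.18 in vector control, a log2 difference of 2.51 (SE 0.36, limma adjusted p = 0.00157). GSTU6 (AT2G29440) stood at -0.71, 0.09, -0.61 and -1.71 in 35S:WIN1, against -2.83, -3.12, -3.58 and -3.03 in vector control, a difference of 2.40 (SE 0.35, adjusted p = 0.00188). In both genes 35S:WIN1 replicate 4 was the lowest of its group, without reaching the controls. GSTU1 (AT2G29490) at the end of the run rose less, with 1.35, 1.37, 1.17 and 0.64 in 35S:WIN1, against -0.26, 0.50, -0.41 and -0.11 in vector control (difference 1.20, SE 0.24, limma adjusted p = 0.00641). GSTU7 (AT2G29420) at the other end, which encodes an enzyme linked to tolerance of the herbicide paraquat, had 2.40, 2.44, 2.24 and 2.56 in 35S:WIN1, against 1.39, 1.76, 1.38 and 1.58 in vector control (difference 0.88, SE 0.12, limma adjusted p = 0.00144). The call of GSTU1 was lost without 35S:WIN1 replicates 1 and 2, the 2 dimmest arrays (difference 0.97, adjusted p = 0.0602, over a range of 0.00239 to 0.449 for all settings).

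GSTU5 (AT2G29450) stood apart from the rest of the run. Its levels were 2.48, 2.86, 2.70 and 2.97 in 35S:WIN1, against 3.02, 2.90, 2.56 and 2.69 in vector control, so that the groups overlapped throughout. The difference was -0.04 with a 95% interval of -0.39 to 0.30 (limma, adjusted p = 0.846). That interval lies below the differences of all 6 other genes of the run, although the contrast between GSTU5 and its neighbours was not tested.

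**Figure D2:**
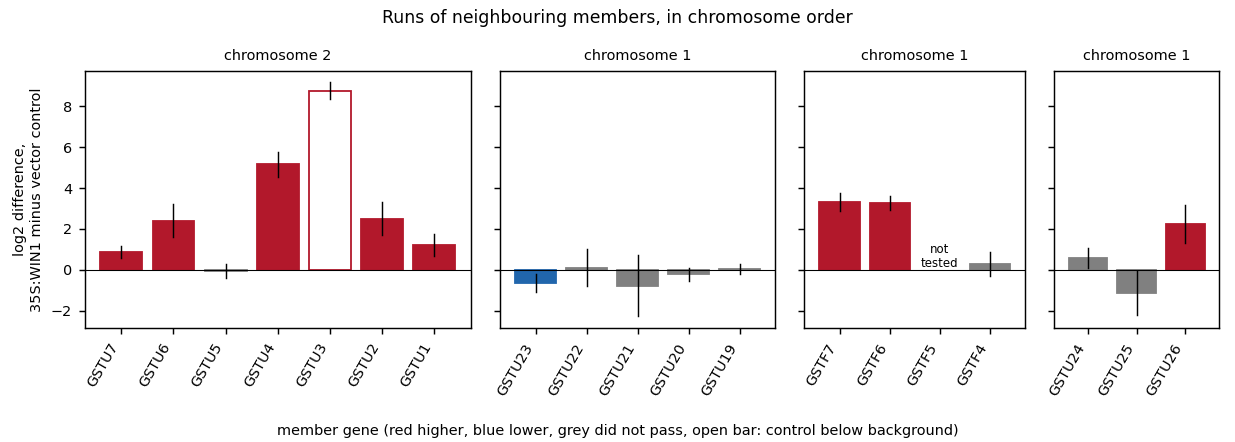
Log2 difference (35S:WIN1 minus vector control, vertical axis) of the members in each run of 3 or more neighbouring members, drawn in chromosome order without distances, with 95% confidence intervals. Red bars are higher, blue lower and grey did not pass, and the open bar (GSTU3) rests on control signal below background. In the run on chromosome 2 all members but GSTU5 rose, in the run of GSTU19 to GSTU23 on chromosome 1 only GSTU23 passed, and in the run of GSTF4 to GSTF7 the adjacent GSTF6 and GSTF7 rose.

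The second large tau run, GSTU19 to GSTU23 on chromosome 1, showed no rise. Its differences ran from -0.78 to 0.11, and 1 of 5 members passed. GSTU19 (AT1G78380), a tau gene long known for its induction by herbicide safeners, had levels of 6.10, 6.21, 5.87 and 5.86 in 35S:WIN1, against 6.01, 6.04, 5.87 and 5.98 in vector control, a difference of 0.04 with a 95% interval of -0.22 to 0.29. GSTU20 (AT1G78370), whose product is linked to aliphatic glucosinolate synthesis and binds the jasmonate-conjugating enzyme FIN219, had a difference of -0.22 (interval -0.53 to 0.09). GSTU23 (AT1G78320) was the member that fell, with -3.59, -3.27, -3.17 and -3.21 in 35S:WIN1, against -3.10, -2.63, -2.68 and -2.22 in vector control (difference -0.65, SE 0.19, limma adjusted p = 0.0303). The groups of GSTU23 lay close together, and its call was lost without replicate 1 or 2 of 35S:WIN1 and without replicate 2, 3 or 4 of vector control (adjusted p of 0.0561 to 0.0795; 2.00e-04 to 0.187 across settings).

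Outside these 2 runs 4 tau members rose. GSTU10 (AT1G74590) had levels of 0.52, 0.40, 0.31 and -0.31 in 35S:WIN1, against -3.46, -2.41, -2.88 and -2.65 in vector control. Its difference of 3.08 (SE 0.26, limma adjusted p = 1.62e-04), or 8.45-fold, was the third largest of the tau class. GSTU26 (AT1G17190), whose product conjugates chloroacetanilide herbicides, had 2.05, 2.48, 0.97 and 0.61 in 35S:WIN1, against -0.23, -0.74, -0.999 and -0.88 in vector control (difference 2.24, SE 0.41, adjusted p = 0.00472). The 35S:WIN1 arrays of GSTU26 fell apart into the higher replicates 1 and 2 and the lower replicates 3 and 4, all above the controls.

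GSTU26 lies in a run with GSTU24 and GSTU25, which are known for conjugating the explosive trinitrotoluene. GSTU24 (AT1G17170) had levels of 2.11, 2.45, 2.24 and 1.64 in 35S:WIN1, against 1.51, 1.72, 1.08 and 1.76 in vector control, a difference of 0.59 that did not pass (limma, adjusted p = 0.0609). GSTU25 (AT1G17180) had -0.21, 0.26, -0.76 and -1.30 in 35S:WIN1, against 0.30, 0.62, -0.15 and 1.76 in vector control, a difference of -1.13 that did not pass either (adjusted p = 0.0885). The groups of both genes overlapped.

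GSTU12 (AT1G69920) had levels of -2.22, -2.06, -1.83 and -1.87 in 35S:WIN1, against -4.65, -2.92, -5.01 and -3.32 in vector control, a difference of 1.98 (SE 0.45, limma adjusted p = 0.0108). Its neighbour GSTU11 (AT1G69930) had -4.01, -4.53, -4.32 and -1.96 in 35S:WIN1, against -5.18, -4.37, -5.52 and -5.99 in vector control. The groups of GSTU11 overlapped and its difference of 1.56 did not pass (adjusted p = 0.0708). Without the 2 dimmest arrays GSTU12 did not pass either (difference 2.12, adjusted p = 0.0547, over a range of 0.00607 to 0.550 for all settings).

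GSTU9 (AT5G62480) was just inside the threshold. It had 0.08, 0.50, -0.52 and -0.57 in 35S:WIN1, against -1.56, -0.66, -1.49 and -0.60 in vector control, a difference of 0.95 (SE 0.32, limma adjusted p = 0.0496). The lowest 35S:WIN1 array and the highest control array lay almost level. The call was lost without any of 35S:WIN1 replicates 1 to 3 or vector control replicates 1 to 3 (adjusted p of 0.0539 to 0.123), and the gene passed in 8 of 21 settings in all, over a range of 0.0342 to 0.350.

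The neighbours GSTU17 and GSTU18 on chromosome 1 both fell. GSTU18 (AT1G10360) had levels of 0.69, 0.78, 1.18 and 1.79 in 35S:WIN1, against 2.68, 2.33, 2.15 and 2.08 in vector control, a difference of -1.20 (SE 0.25, limma adjusted p = 0.00841). GSTU17 (AT1G10370), also called ERD9 and known as a negative regulator of drought tolerance, had -0.78, -0.38, -1.43 and -0.75 in 35S:WIN1, against -0.20, -0.10, 0.08 and -0.01 in vector control, a difference of -0.78 (SE 0.21, adjusted p = 0.0218). The groups did not overlap in either gene. Without the 2 dimmest arrays the call of GSTU18 was lost (difference -0.83, adjusted p = 0.0560), and without vector control replicate 3 that of GSTU17 (difference -0.73, adjusted p = 0.0579). Across settings GSTU18 had adjusted p of 4.01e-06 to 0.0560, and GSTU17 of 9.07e-05 to 0.0579.

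In all, 14 tau members did not pass, with differences from -1.13 to 1.56. For 7 of them the 95% interval of the difference lay within 2-fold in either direction, and for the other 7 it reached further, so that these arrays leave a 2-fold change of those genes unmeasured. GSTU13 (AT1G27130), whose product acts in the metabolism of indole glucosinolates, had -3.20, -3.39, -2.90 and -2.17 in 35S:WIN1, against -2.88, -2.97, -3.01 and -3.03 in vector control (difference 0.06, interval -0.50 to 0.62). Its control arrays lay tightly together and its 35S:WIN1 arrays spread on both sides of them. GSTU8 (difference 0.45), GSTU14 (-0.18), GSTU16 (-0.33), GSTU21 (-0.78), GSTU22 (0.11), GSTU27 (0.17) and GSTU28 (0.31) complete the class, with adjusted p from 0.195 to 0.859.

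**Figure D3:**
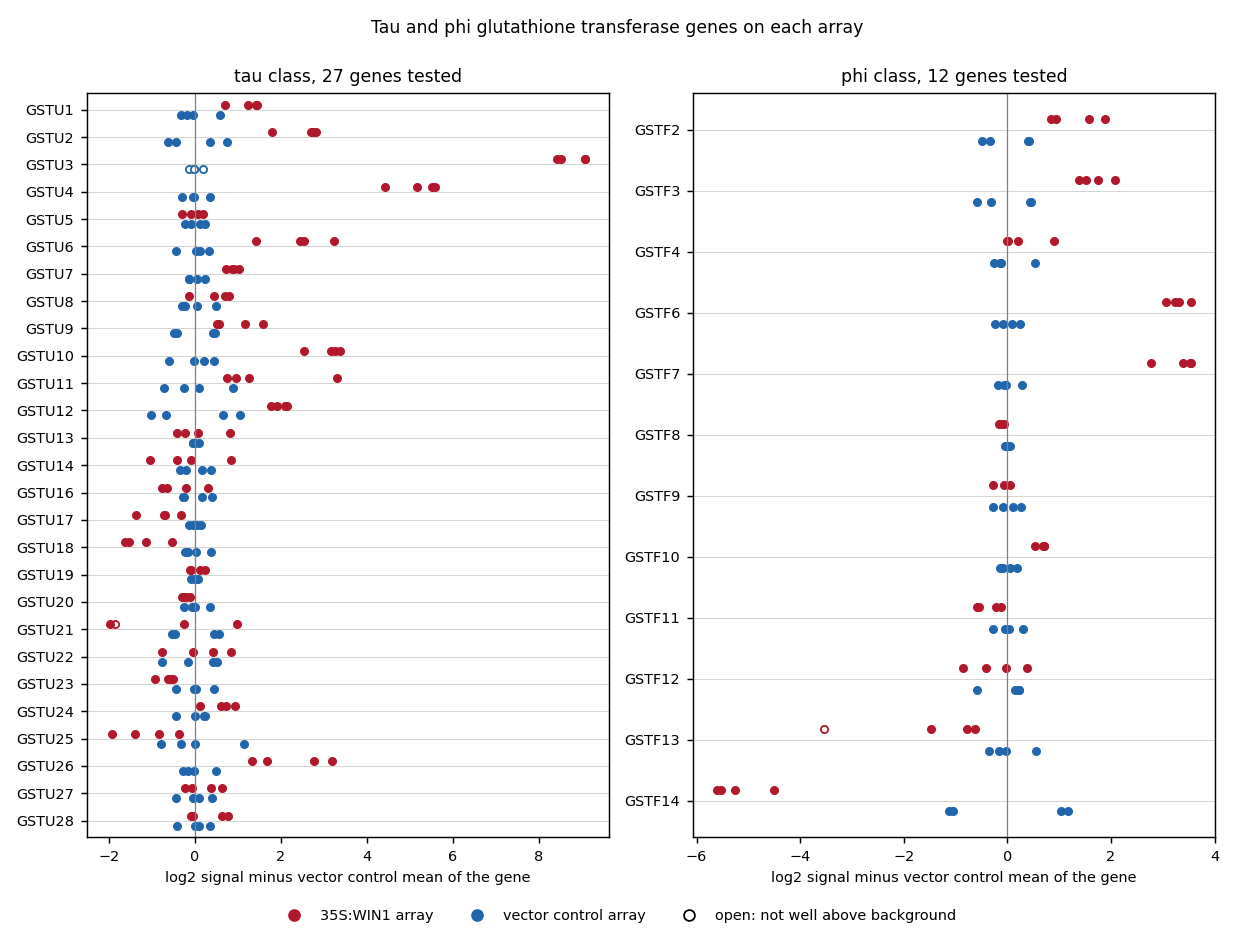
Level of each of the 27 tau (left) and 12 phi (right) members tested on each array, as log2 signal minus the gene's mean over the vector control arrays (horizontal axis). Red points are the 4 35S:WIN1 arrays, blue points the 4 vector control arrays, and open points were not well above background. Among the members whose groups did not overlap, red and blue points are furthest apart for GSTU3, GSTU4, GSTU10, GSTF6, GSTF7 and GSTF14. The control points of GSTF14 fall in 2 pairs.

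The phi class had its largest rises in the neighbours GSTF6 and GSTF7, both known as genes induced by pathogens and salicylate. GSTF6 (AT1G02930), whose product joins glutathione to indole-3-acetonitrile on the way to the antimicrobial camalexin, had levels of 2.68, 2.94, 2.87 and 3.17 in 35S:WIN1, against -0.61, -0.13, -0.46 and -0.29 in vector control. This was a 9.78-fold rise, or a log2 difference of 3.29 (SE 0.15, limma adjusted p = 1.62e-05). GSTF7 (AT1G02920) had 2.51, 2.66, 1.89 and 2.65 in 35S:WIN1, against -1.06, -0.60, -0.91 and -0.96 in vector control, a difference of 3.31 (SE 0.19, adjusted p = 3.42e-05), or 9.89-fold. The products of both genes are close in sequence, and so may be their transcripts, so a probe's signal may include the other gene's transcript and the values of the pair are uncertain as separate measurements. GSTF4 (AT1G02950) in the same run had a difference of 0.28 that did not pass (interval -0.30 to 0.85), and GSTF5 between GSTF4 and GSTF6 was well above background on no array.

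GSTF2 and GSTF3, another pair of close copies that lie on different chromosomes, also rose. GSTF2 (AT4G02520), whose product binds indole compounds such as camalexin, had levels of 4.40, 4.29, 5.04 and 5.34 in 35S:WIN1, against 2.98, 3.86, 3.88 and 3.13 in vector control (difference 1.31, SE 0.31, limma adjusted p = 0.0130). GSTF3 (AT2G02930) had 0.53, 0.67, 0.89 and 1.23 in 35S:WIN1, against -1.17, -0.41, -0.39 and -1.44 in vector control (difference 1.68, SE 0.27, adjusted p = 0.00283). In both genes 35S:WIN1 replicates 3 and 4 were the highest, and vector control replicates 2 and 3 stood above replicates 1 and 4. As with GSTF6 and GSTF7, signal from the partner gene cannot be told apart here.

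GSTF10 (AT2G30870), also called ERD13 for its early induction by dehydration, had levels of 4.94, 5.09, 5.10 and 5.10 in 35S:WIN1, against 4.45, 4.60, 4.26 and 4.32 in vector control. Its difference of 0.65 was small but even (SE 0.11, limma adjusted p = 0.00283), or 1.57-fold, with no overlap. Its neighbour GSTF9 (AT2G30860), linked to glucosinolate synthesis, had a difference of -0.09 with an interval of -0.47 to 0.28, from 3 values in 35S:WIN1 because 1 spot carried an outlier mark.

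GSTF14 (AT1G49860) was the phi member that fell. Its levels were -5.37, -5.10, -4.35 and -5.46 in 35S:WIN1, against -0.97, 1.18, -0.90 and 1.31 in vector control, a difference of -5.23 (SE 0.59, limma adjusted p = 5.56e-04), or 37.4-fold lower. The probe was well above background on all arrays, and the lowest control array stood far above the highest 35S:WIN1 array. GSTF14 passed in all 21 settings, with differences from -6.86 to -3.68 and adjusted p of at most 0.00984. GSTF13 (AT3G62760) had -8.02, -5.10, -5.26 and -5.94 in 35S:WIN1, where 3 of 4 arrays were above background, against -4.64, -3.93, -4.84 and -4.51 in vector control. Its groups did not overlap, but the difference of -1.61 did not pass (adjusted p = 0.0702). Without 35S:WIN1 replicate 1, the array below background, it passed (difference -0.96, adjusted p = 0.0421, against 1.05e-07 to 0.648 across settings).

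GSTF12 (AT5G17220), also called TT19, carries anthocyanins and their precursors towards the vacuole, and it had -2.84, -3.28, -2.04 and -2.45 in 35S:WIN1, against -3.02, -2.20, -2.29 and -2.20 in vector control (difference -0.23, interval -0.90 to 0.45). GSTF11 (AT3G03190), of aliphatic glucosinolate synthesis, had -1.03, -0.71, -0.62 and -1.08 in 35S:WIN1, against -0.55, -0.46, -0.77 and -0.19 in vector control (difference -0.37, interval -0.74 to 0.00). GSTF8 (AT2G47730), used as a marker of early stress responses for its promoter, had 1.97, 1.93 and 2.03 in 35S:WIN1, with the fourth spot left out for an outlier mark, against 2.06, 2.16, 2.07 and 2.12 in vector control. The 3 values in 35S:WIN1 lay just below all control values, the difference was -0.12 with an interval of -0.35 to 0.10, and it did not pass (limma, adjusted p = 0.341).

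The medians over the tau and the phi members called higher were uneven over the 35S:WIN1 arrays. For the 10 tau members called higher, the median level above the gene's control mean was 2.60, 2.97, 2.34 and 1.60 on 35S:WIN1 replicates 1 to 4. For the 5 phi members called higher it was 1.38, 1.52, 1.74 and 2.08. On the control arrays the same medians ran from -0.32 to 0.35 for tau and from -0.24 to 0.28 for phi. The 35S:WIN1 arrays of lowest brightness, replicates 1 and 2, thus had the higher medians for the tau rises and the lower ones for the phi rises. The phi median was the value of GSTF3 alone on each 35S:WIN1 array, and GSTF7 was lowest on replicate 3. Over all 27 tau members tested the medians were 0.60, 0.74, 0.62 and 0.17 in 35S:WIN1, and over all 12 phi members 0.20, 0.37, 0.20 and 0.00. Replicate 4 was thus the lowest in both classes when all members tested were taken. The members called were chosen by the same arrays, so their medians are a description.

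**Figure D4:**
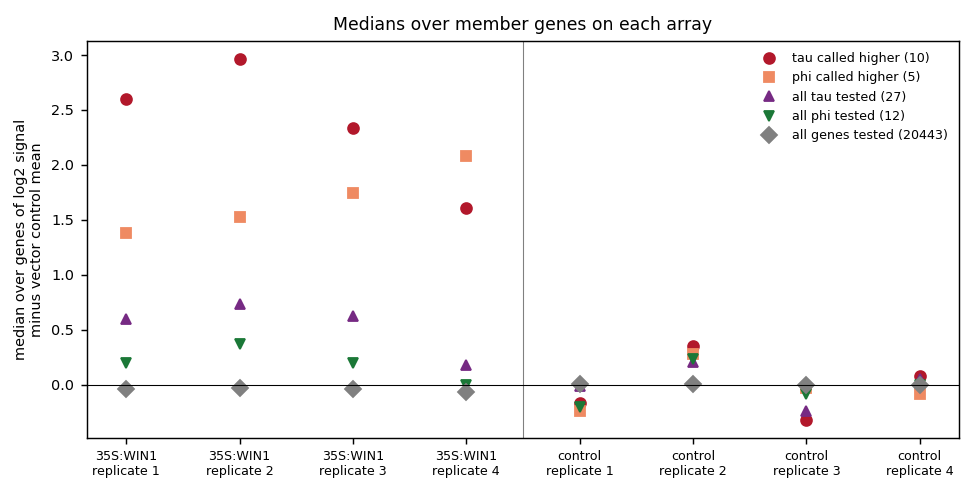
Median over genes of the log2 signal minus the gene's vector control mean (vertical axis) on each array, with the 4 35S:WIN1 arrays on the left and the 4 vector control arrays on the right. Points show the 10 tau and 5 phi members called higher, all 27 tau and 12 phi members tested, and all 20443 genes tested. The median of the tau rises is lowest on 35S:WIN1 replicate 4 at 1.60. That of the phi rises, which is the value of GSTF3 on each 35S:WIN1 array, is highest there at 2.08.

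Of the 41 members 29 lay in 9 runs of neighbours with at most 3 other protein-coding genes between them. The protein-coding genes next to the members, 3 on each side of every run or lone member and any that lay within a run, gave 102 tested genes, of which 12 (11.8%) were higher and 24 (23.5%) lower, beside 15.1% and 20.2% of all genes tested. Around GSTU1 to GSTU7 1 of 6 tested neighbours was higher and 0 lower, with differences from -0.37 to 0.94. Around GSTF4 to GSTF7 0 of 5 were higher and 2 lower, and the neighbours of GSTF14 ran from -0.40 to 0.26. These neighbours had smaller differences than GSTU3, GSTU4, GSTF6, GSTF7 and GSTF14. Those members were picked for the size of their differences on the same arrays, so this contrast follows from the choice and is a description only.

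Of 42 related genes in 5 lists (other glutathione transferases, glutathione supply, vacuolar pumps, TGA and xenobiotic response, late anthocyanin genes), 39 were tested, 5 were higher and 7 lower, or 30.8% called beside 35.3% of all genes tested, and their differences ran from -1.14 to 1.23 with a median of 0.19. Among the 12 genes of other glutathione transferase classes 2 were higher and 4 lower, beside 15.1% and 20.2% of all genes tested. The zeta class genes GSTZ1 and GSTZ2, of tyrosine breakdown, had differences of 0.88 and 1.23 (limma, adjusted p = 0.00515 and 0.00393). The lambda class gene GSTL2 (-1.13, adjusted p = 0.00679) and DHAR3, for the plastid dehydroascorbate reductase (-0.72, adjusted p = 0.00389), were lower. The other genes of that list called lower were GSTL3 and DHAR2, at -0.54 and -0.76, and the groups of GSTL3 overlapped.

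Of the 7 tested genes that supply and recycle glutathione 1 (14.3%) was higher, beside 15.1% of all genes tested. This was GGT1, for an enzyme that degrades glutathione outside the cell (0.66, limma adjusted p = 0.0133). GSH1 and GSH2, for both steps of glutathione synthesis, had differences of 0.36 and 0.23, and the glutathione reductase genes GR1 and GR2 had 0.35 and -0.53, none of which passed. Of the 3 genes for vacuolar pumps of glutathione conjugates, ABCC1 was higher by 0.42 (adjusted p = 0.0192, passing in 17 of 21 settings with adjusted p of 0.0128 to 0.967), ABCC3 had 0.81 (adjusted p = 0.0520) and ABCC2 -0.34 (adjusted p = 0.290).

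Regulators and markers of the response to foreign and oxidized compounds had 1 higher and 3 lower of 12, or 33.3% called beside 35.3% of all genes tested. TGA factors bind the promoters of many glutathione transferase genes, and of their genes TGA5 rose by 0.47 (limma, adjusted p = 0.0107), while TGA3 fell, with -0.56 (adjusted p = 0.00600). TGA4 was just inside the threshold, at -0.36 (adjusted p = 0.0495), and passed in 6 of 21 settings (adjusted p of 0.00104 to 0.192). AER, for an alkenal reductase, had -1.14 (adjusted p = 0.0371) with groups that overlapped, and it passed in 11 of 21 settings (adjusted p of 6.52e-06 to 0.203). CYP81D11, a cytochrome P450 gene that responds to foreign compounds through TGA factors, had 0.66 (adjusted p = 0.0788). The late anthocyanin genes, the partners of GSTF12, had 0 called of 5 tested under limma, with 0 at an unadjusted p under 0.05 as well, and TT8, PAP1, DFR and UF3GT had differences of 0.53, 0.57, -0.97 and 0.33. As for GSTF12, the groups of all 5 overlapped.

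**Figure D5:**
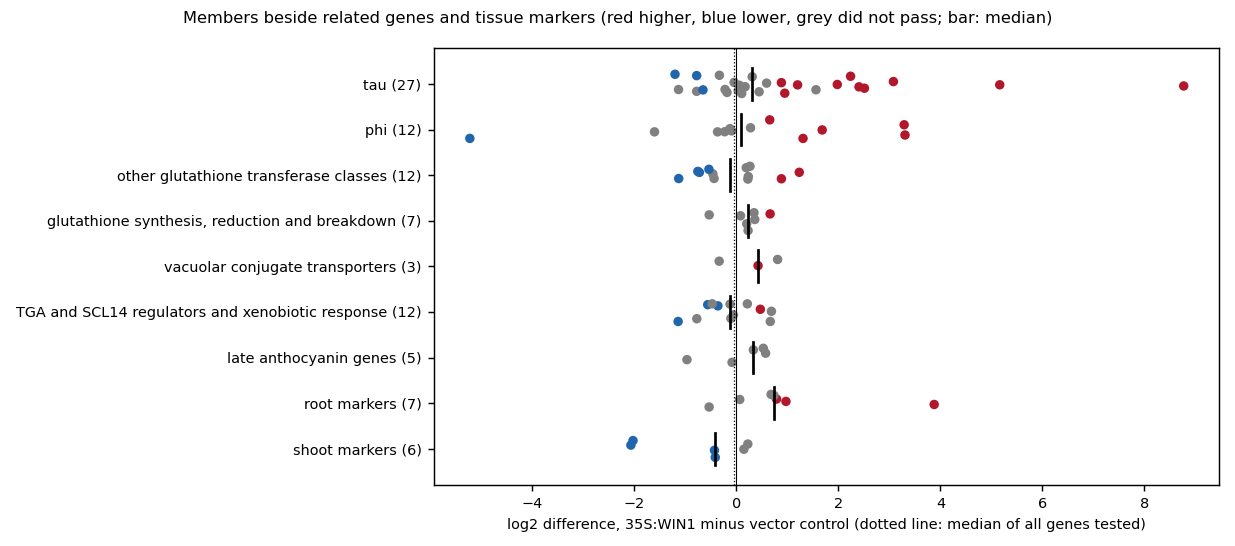
Log2 difference (35S:WIN1 minus vector control, horizontal axis) of the tau and phi members tested, of the 5 lists of related genes and of the root and shoot markers, with the number tested in brackets and the median as a bar. Red points are higher, blue lower and grey did not pass, and the dotted line is the median of all genes tested, at -0.04. The related genes lie between -1.14 and 1.23, while members measured in both groups reach 5.16 (GSTU4) and -5.23 (GSTF14). The tau point at 8.77 is GSTU3, which rests on control signal below background.

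All directions are relative to the 75th percentile of each array. The spike-in RNAs were higher relative to that percentile in 35S:WIN1 on average, with medians of 4.38, 4.29, 3.82 and 2.77 on replicates 1 to 4. In vector control the medians were 2.78, 2.14, 2.25 and 1.55, so that the groups overlapped. With the spike-in median as the scale differences shift down by 1.63, other than those of genes that lack an array, such as GSTF8 and GSTF9. Of the 15 members called higher 10 then stay above 0, and 5, namely GSTU1, GSTU7, GSTU9, GSTF2 and GSTF10, lie below 0. GSTU3, GSTU4, GSTU10, GSTF6 and GSTF7 were called higher on both scales, while GSTU2, GSTU6, GSTU12, GSTU26 and GSTF3 stayed above 0 without passing. In the deposited table, which is not scaled between arrays, GSTU1, GSTU7, GSTU9, GSTU23, GSTF2, GSTF3 and GSTF10 did not pass and the other 12 members called kept their call. Which scale is right cannot be read from these arrays, and neither gives the amount of transcript per seedling.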

How the data were processed

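Total RNA, 1 µg per sample per the labels' protocols, was labelled with Cy3 and hybridised to 1-colour Agilent arrays, and the submitters' processing notes name Agilent Feature Extraction 9.1.3.1. The processed signal is a linear intensity, background-subtracted and detrended but not scaled between arrays, per the file headers. The deposited value table of the series holds the same intensity, divided by a constant for each slide, on a linear scale and uncentred, with array medians of 0.0464, 0.0588, 0.114 and 0.125 in 35S:WIN1, against 0.0853, 0.111, 0.112 and 0.126 in vector control.

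Levels were log2 of the processed signal minus that of each array's 75th percentile over non-control spots, and outlier-marked spots were dropped. A locus took its brightest probe and needed 4 of 8 arrays well above background. Differences were tested with limma 3.58.1 (R 4.3.3), two-sided, with Benjamini-Hochberg adjustment over 20443 genes at 0.05, after a test on simulated arrays. Names and gene order came from RefSeq for TAIR10.1. No sequences are shown, and identity between copies was not computed. The number of arrays limits the precision.

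Members and lists were chosen with earlier results of these data known. Values on each array are given for the members that passed with groups apart (up to 8 rises and 8 falls of tau, 6 of phi) and for their neighbours, and some other members were added after their values were seen. From each related list up to 4 genes of smallest p are named, and others named with them were chosen after their values were seen.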

Additional observations from a re-analysis of the deposited data

Results flagged for a closer look

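In 3 of the 76 groups of 4 arrays examined over the members tested, the lowest array stood apart from the others by more than Dixon's 95% critical value for the gap divided by the range. Chance flags about 1 in 20 groups. GSTU2 had -1.13 on 35S:WIN1 replicate 4, with its nearest array at -0.21. GSTF10 had 4.94 on 35S:WIN1 replicate 1, with its nearest array at 5.09, a gap that is small in size. GSTF12 had -3.02 on vector control replicate 1, with its nearest array at -2.29.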

How the results depend on the processing

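The 19 member calls were compared over 20 alternatives. Under quantile normalization, median scaling, normexp background correction, no filter on dim probes, a mean over probes, eBayes with trend and robust, and array weights, 18 or 19 of them were kept, the lost one being GSTU9 or GSTU23. With probes well above background on all arrays, 18 of the 18 still tested were kept, and with 1 array left out 16 to 19, the lost ones being GSTU9, GSTU17 and GSTU23. After scaling, the correlations of same-numbered deviations from the group means were -0.04, 0.06, 0.14 and 0.04, with replicate 3 alone correlating best with its own number. The 75th percentile itself rose with the replicate number, from 996.7 to 2490 in 35S:WIN1 and from 1790 to 2354 in vector control. Scaling by that percentile, a constant for each array, takes out this rise and leaves the correlations across genes unchanged. Whether same-numbered arrays share more than a number was not tested further. With the number as a replicate block, 17 member calls were kept and 4 related genes were lower.

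Scaling moved most. With spike-in scaling 3 tau members were higher and 15 lower, 2 phi members higher and 7 lower, 0 related genes higher and 31 lower, and 402 genes of all higher and 17160 lower, with class medians of -1.32 (tau) and -1.45 (phi). In the deposited values 2 phi members were higher and 2 lower, 0 related genes higher and 2 lower, and 905 genes of all higher and 2088 lower, with class medians of -0.089 (tau) and -0.34 (phi). The median of all genes moved to -1.68 with spike-in scaling and to -0.45 in the deposited table. Without the 2 dimmest arrays 1 tau and 2 phi members and 2 related genes were lower, and of all genes 1951 were higher and 2367 lower. With no filter on dim probes 4 related genes were lower.

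Leaving out 1 array at a time gave 9 to 12 tau members higher and 1 to 3 lower, 5 phi members higher and 1 to 2 lower, 4 to 8 related genes higher and 3 to 10 lower, and 2272 to 3707 genes of all higher and 2983 to 4628 lower. The class medians ran from 0.22 to 0.45 (tau) and from 0.03 to 0.18 (phi). The phi median was -0.093 with no filter on dim probes and 0.28 with probes well above background on all arrays.

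Signs turned with spike-in scaling for GSTU11 (-0.074), GSTF2 (-0.33), GSTZ2 (-0.40), GSTU1 (-0.43), GSTU9 (-0.69), GSTZ1 (-0.75), GSTU7 (-0.75), ABCC3 (-0.83), GGT1 (-0.97), GSTF10 (-0.98), GSTU24 (-1.04), PAP1 (-1.06), TT8 (-1.11), TGA5 (-1.16), GSTU8 (-1.19), ABCC1 (-1.21), GR1 (-1.29), UF3GT (-1.30), GSTU28 (-1.32), GSTF4 (-1.36), GGT4 (-1.43), GSTU27 (-1.46), GSTU22 (-1.53), GSTU13 (-1.58) and GSTU19 (-1.60). In the deposited table they turned for GR1 (-0.054), UF3GT (-0.066), GSTU28 (-0.089), GSTF4 (-0.12), GGT4 (-0.20), GSTU27 (-0.23), GSTU22 (-0.29), GSTU13 (-0.34) and GSTU19 (-0.36). Other turns were those of GSTU14 with array weights (0.11) and normexp (0.076), GSTU21 with normexp (0.11), and GSTU5 (0.016) and GSTF9 (0.13) with quantile normalization. Without the 2 dimmest arrays GSTU19 (-0.11), GSTU27 (-0.15), GSTU22 (-0.41), ABCC2 (0.023), GSTU5 (0.039), GSTU16 (0.053), GSTF12 (0.18) and GSTU14 (0.36) turned. Leaving out 1 array at a time turned the sign in part of the range for GSTU5 (-0.12 to 0.047), GSTU14 (-0.52 to 0.11), GSTU19 (-0.032 to 0.086), GSTU22 (-0.15 to 0.40), GSTU13 (-0.19 to 0.22), UF3GT (-0.042 to 0.65). The shifts under both scalings follow from their construction, and the cause of the other turns was not tested. GSTU5, GSTU19, GSTU22 and GSTF9, which turned with differences near 0, were well above background on all arrays. Signal over background limits the difference of a probe dim in 1 group, as for GSTU3.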

Other observations

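Some members split the vector control arrays into pairs, as was noticed after their values were seen. GSTF14 stood at 1.18 and 1.31 on replicates 2 and 4, against -0.97 and -0.90 on replicates 1 and 3. GSTU12 had -2.92 and -3.32 on replicates 2 and 4, against -4.65 and -5.01 on replicates 1 and 3, and GSTU9 had -0.66 and -0.60, against -1.56 and -1.49. GSTF2 and GSTF3 split the arrays differently, with 3.86 and 3.88 for GSTF2 and -0.41 and -0.39 for GSTF3 on replicates 2 and 3, against 2.98 and 3.13 for GSTF2 and -1.17 and -1.44 for GSTF3 on replicates 1 and 4. The labels name no feature of the control samples that sets these pairs apart.

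GSTU8 lies next to PYK10, a root marker that encodes an abundant beta-glucosidase. PYK10 rose by 0.79 (limma, adjusted p = 0.0166), while GSTU8 had a difference of 0.45 with a 95% interval of -0.12 to 1.02 that did not pass (adjusted p = 0.195).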
